A study of Mus musculus with 11 samples.

Results

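The regions described here lie inside protein-coding genes and carried a peak of RFX3 without a peak of RFX1 or RFX2. Peaks of 3 deposited lists, 1 per factor, were merged where they shared at least 1 bp. Regions were chosen by the presence of an RFX3 peak and the absence of RFX1 and RFX2 peaks, together with position: a region was kept when it held RFX3 peaks alone and the summit of its first RFX3 peak, the point of strongest signal, fell inside a protein-coding gene and over 1 kb from the start and end of every such gene. This left 1666 of 11236 regions, and 1666 of the 3788 regions with RFX3 alone. The lists came from ChIP-seq, in which chromatin bound by a protein is recovered with an antibody and sequenced. The 11 samples were 2 ChIP samples each for RFX3, RFX1 and RFX2, 1 input sample for RFX3 and 2 each for RFX1 and RFX2, all from ependymal cells differentiated ex vivo from lateral walls of the brain of wild-type OF1 mice, with the age given as P0 and the tissue as embryonic. Each factor had an antibody of its own, and for RFX2 the lot changed between its ChIP samples. Each deposited list already merges its replicates, so no value below has a replicate error, and the depth behind the peaks is unknown. Peak lists hold no expression, so the cell type could not be checked against its markers. A region without an RFX1 peak is a region where none was called. The lists also stop at unlike strengths on the deposited −log10 q scale. The weakest RFX3 peak had 8.87, while the RFX1 list stopped at 12.03 and the RFX2 list at 18.2. The RFX3 values of the regions described here had a first quartile of 10.7 and a median of 13.01. Whether these unequal limits account for the absence of RFX1 or RFX2 peaks was not tested.

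RFX proteins bind DNA through a winged-helix domain at the X-box, an element made of a pair of inverted arms with a short spacer. RFX3 is known for switching on genes of motile and primary cilia, and ependymal cells are multiciliated cells that move cerebrospinal fluid. Sites within the body of a gene can be enhancers, start sites of alternative transcripts, or places of binding with no known role.

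Sequence was at hand where a summit fell in a RefSeq promoter window (GRCm38.p6), which runs from 250 bases before to 50 bases after an annotated start. The windows used cover the chromosomes of 1619 of the 1666 regions, though not every gene on them. Of these 1619, 25 had their summit in a window: 18 at alternative starts of coding genes and 7 at starts of lncRNA genes. Windows were searched on both strands for the X-box arm GTTNCC, whose reverse complement is GGNAAC, and for a paired X-box, defined as GTTNCC, then 0 to 3 bases, then GGNAAC. Every paired X-box holds a pair of arms, so the motifs overlap. A paired X-box was found in 5 of the 25 windows (20%, exact 95% interval 6.83 to 40.7), and 264 of all 32851 windows held one (0.804%). These 5 are shown because the motif lies under or beside the summit in each, with 2 further windows for contrast. Each stretch is 120 bases long, 5′ to 3′ on the strand of the transcript, and capitals mark the paired X-box, or in Zscan18 the single arm.
Zfyve1, chr12:83562461-83562580, minus strand: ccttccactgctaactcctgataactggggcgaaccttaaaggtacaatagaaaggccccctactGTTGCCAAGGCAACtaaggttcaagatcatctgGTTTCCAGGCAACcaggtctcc
Ablim1, chr19:57274799-57274918, minus strand: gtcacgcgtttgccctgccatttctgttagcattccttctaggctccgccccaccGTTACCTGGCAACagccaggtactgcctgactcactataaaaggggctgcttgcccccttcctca
Rmdn2, chr17:79626555-79626674, plus strand: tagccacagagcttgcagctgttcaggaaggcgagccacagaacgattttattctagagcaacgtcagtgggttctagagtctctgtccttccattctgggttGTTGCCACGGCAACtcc
Gm52616 in Arhgef38, chr3:133163298-133163417, plus strand: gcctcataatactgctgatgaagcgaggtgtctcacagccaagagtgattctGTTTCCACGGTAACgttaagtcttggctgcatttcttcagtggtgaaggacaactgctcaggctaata
Gm52243 in Meltf, chr16:31897584-31897703, minus strand: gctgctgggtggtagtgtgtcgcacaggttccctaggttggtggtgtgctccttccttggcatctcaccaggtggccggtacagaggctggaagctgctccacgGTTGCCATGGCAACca
Zscan18, chr7:12780699-12780818, minus strand: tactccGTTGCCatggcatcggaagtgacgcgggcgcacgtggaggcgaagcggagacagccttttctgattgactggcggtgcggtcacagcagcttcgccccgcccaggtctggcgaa
Dis3l2, chr1:86703684-86703803, plus strand: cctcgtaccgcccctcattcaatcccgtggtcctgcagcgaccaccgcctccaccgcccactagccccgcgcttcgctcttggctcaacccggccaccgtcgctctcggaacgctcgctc

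The alternative start of Zfyve1, which encodes a FYVE-domain protein of the endoplasmic reticulum, has a paired X-box on either side of a short spacer sequence. Its RFX3 summit fell inside the second of these and 27 bp from the first, with a fold enrichment of 8.50. At Ablim1, an actin-binding LIM protein gene, the summit fell inside the paired X-box and the fold was 5.54. The summit was 9 bp from the motif at Rmdn2, a regulator of microtubule dynamics. It was 1 bp from the motif at the lncRNA gene Gm52616 and 18 bp from it at the lncRNA gene Gm52243, with folds of 7.84, 7.45 and 3.04 in these 3. All 5 were weak peaks, with a −log10 q between 10.4 and 13.8. The best-scoring region at an alternative start was that of Dis3l2, an exoribonuclease gene, at 38.2, with a summit 16 bases after the start; its window held no arm. The second was that of the zinc finger gene Zscan18 (28.7), with 1 arm. No arm was found in 7 of the 25 windows, which says only that these letters are absent from the window.

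The deposited −log10 q and fold enrichment are the authors' values, and they helped to choose these regions, so they are given as a description without a test. Each of the 1666 regions consisted of 1 RFX3 peak. The −log10 q ranged from 8.87 to 69.7 with a median of 13.01, and the fold ranged from 2.49 to 24.3 with a median of 7.35. The median peak was 222 bp wide. Regions inside genes with RFX1 and RFX3 had a median RFX3 −log10 q of 23.6 and a fold of 7.84, and those with all 3 factors had 61.2 and 10.8. RFX3 alone between genes was close to RFX3 alone inside genes (13.7 and 7.45), while RFX3 alone at gene ends had a lower fold (14.9 and 4.80). Of the 1666 regions, 334 (20.05%) reached a −log10 q of 20 and 14 reached 50. The median of the whole RFX3 list, 19.9, was met by 352 of them (21.1%).

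**Figure D1:**
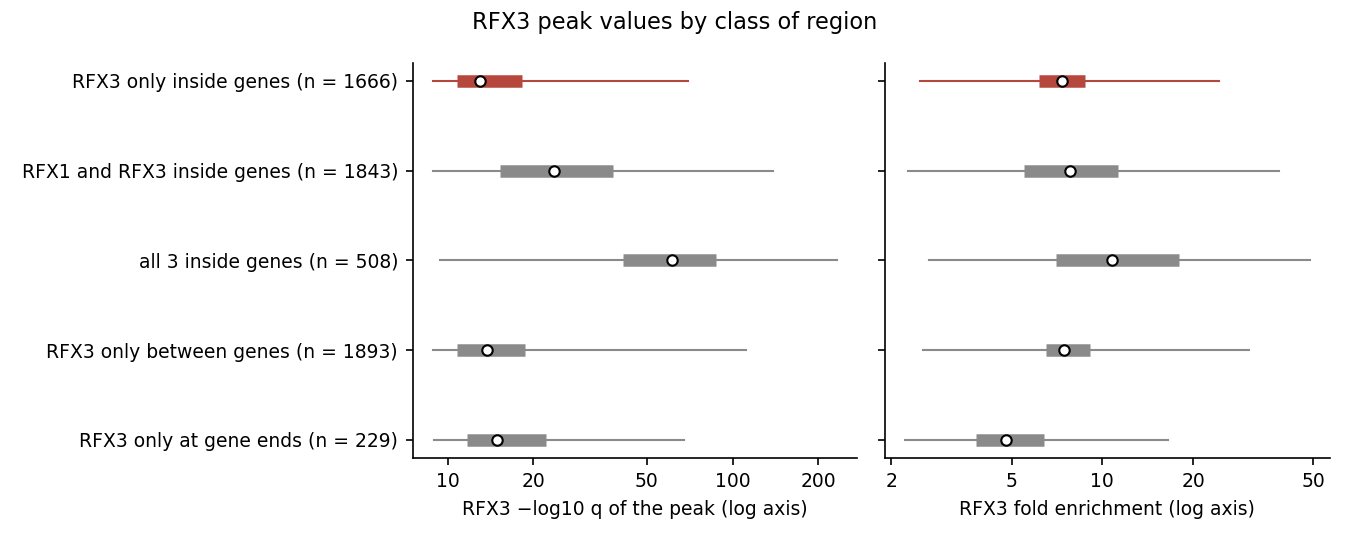
RFX3 −log10 q (left) and fold enrichment (right) of the first RFX3 peak in 5 classes of region, on log axes; thin lines run from the lowest to the highest value, thick bars span the quartiles and circles are medians. RFX3 alone inside genes had a median −log10 q of 13.01, against 23.6 with RFX1 and RFX3 and 61.2 with all 3, while the median folds were 7.35, 7.84 and 10.8.

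Many of these regions shared exact values. A fold of 7.45 with a −log10 q of 10.7 occurred in 78 regions, 7.06 with 9.69 in 76, and 7.84 with 11.8 in 55. The folds of 485 regions (29.1%) were whole multiples of a single step, 0.392, to within 0.0005. The multiples for the 3 commonest folds were 19, 18 and 20 steps. The same step held for 18.9% of regions inside genes with RFX1 and RFX3, 36.4% of those with RFX3 alone between genes, and 7.42% of those with RFX3 alone at gene ends. The 3 commonest folds thus differed by 1 step each, but the step was itself taken from the commonest folds of the RFX3 list.

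The best-scoring region lay in Chrm3, the gene of the M3 muscarinic acetylcholine receptor, at chr13:9929950-9930314 (GRCm38). Its −log10 q was 69.7 and its fold 24.3, and it ranked 722 of 9318 in the RFX3 list. The next lay in Dclk2, a doublecortin-like kinase gene (chr3:86845121-86845400), with 66.3 and 22.3, and in Galnt18, a gene of O-glycan synthesis (chr7:111672392-111672928), with 64.1 and 21.6. Lhfpl3, which encodes a tetraspan membrane protein (62.1), and the uridine phosphorylase gene Upp1 (60.5) completed the best 5. Over the best 10, the gap to the nearest RFX1 or RFX2 peak ran from 10383 bp in Dclk2 to 600320 bp in Lhfpl3, and it was 343256 bp in Chrm3. The thyroid hormone receptor gene Thrb and Fam168a had the same pair of values, 59.4 and 17.1. Ranbp3l (57.4), the sodium leak channel gene Nalcn (55.8) and Cyb5b, which encodes an outer mitochondrial membrane cytochrome (54.3), followed. Of the best 10, the summits in Chrm3, Ranbp3l and Nalcn lay at least 88.7% of the way along the gene, and that in Lhfpl3 lay 7.62% of the way along.

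Few of these regions lay within 1000 bp of an RFX1 or RFX2 peak, which the rule in part imposes. Gaps from other positions in the genome were not taken for comparison. The median gap to the nearest RFX1 or RFX2 peak was 69561 bp, and 996 regions (59.8%) had such a peak within 100000 bp. It was within 1000 bp in 44 regions (2.64%) and within 250 bp in 11. The closest were in Hsf2bp (42 bp), Serhl (51 bp) and Fam126a (117 bp), with folds of 7.06, 3.93 and 15.7. At the other limit of the rule, the summits just inside the 1 kb distance lay 1008 bp from a gene end in Gm46752, 1023 bp in the neuroligin gene Nlgn3 and 1062 bp in Zfp668, with a −log10 q of 16.0, 46.3 and 10.9. Just outside it lay regions of Gpr162 at 999 bp, Snx13 at 995 bp and Znrf1 at 986 bp, with 17.2, 21.6 and 10.1. The weakest regions kept were in Phf21a (8.87), Runx2 (8.89) and Med27 (8.92).

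The 1666 regions fell in 1263 genes, which is 5.77% of the 21887 protein-coding genes. Of the regions, 1653 lay in 1 gene and 13 in a pair of overlapping genes. Host genes were long, with a median of 132.749 kb against 17.2 kb for all protein-coding genes. The share of genes with a region rose over classes of length: 0.994% under 30 kb, 7.43% from 30 to 100 kb, 24.8% from 100 to 300 kb and 50.1% from 300 kb upward. Per Mb of gene, the classes were much closer, with 0.979, 1.51, 1.93 and 1.66 regions per Mb. The rule leaves out 1 kb at each end, which costs short genes the largest part of their length.

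Genes with an RFX3-only region were also more often home to a region shared by RFX1 and RFX3, in every class of length. In the shortest class, 6.29% of host genes had one (exact 95% interval 2.92 to 11.6), against 1.73% of other genes (1.53 to 1.96). From 30 to 100 kb the shares were 18.3% (14.5 to 22.6) of hosts and 8.77% (7.97 to 9.61) of other genes. From 100 to 300 kb they were 38.8% (34.3 to 43.4) and 21.7% (19.5 to 23.9), and from 300 kb upward 62.4% (56.4 to 68.1) and 34.9% (29.3 to 40.8). Over all genes, 6.82% had such a shared region inside. Genes are not replicates and length still varies within a class, so no p-value is given.

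**Figure D2:**
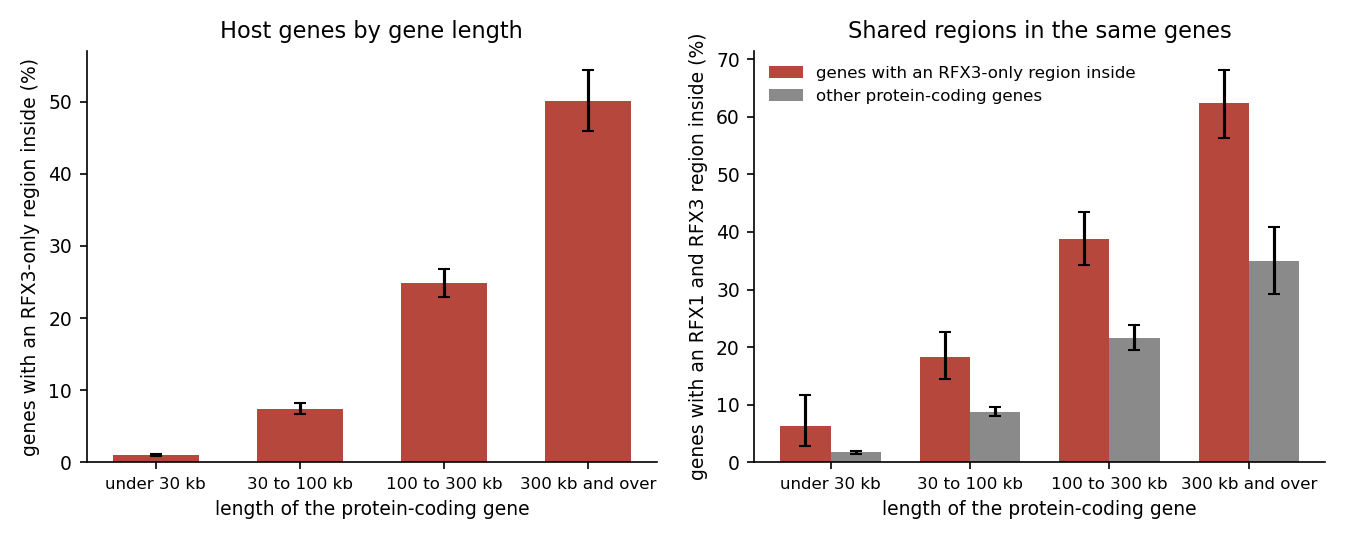
Share of protein-coding genes with an RFX3-only region inside (left) and share with an RFX1 and RFX3 region inside (right; red, genes with an RFX3-only region, and grey, other genes), by gene length; bars are percentages and error bars are exact 95% intervals on the count of genes. In the longest class 50.1% of genes were hosts, and 62.4% of hosts had a shared region against 34.9% of other genes.

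RFX1 binding at gene ends did not follow the same pattern. An RFX1 summit lay within 1 kb of an end in 144 of the 1263 host genes (11.4%), against 1836 of 20624 other genes (8.90%) and 9.05% of all genes. The shares were close in 3 of the 4 classes of length, for instance 11.2% of hosts and 11.3% of other genes from 100 to 300 kb. Under 30 kb, 24 of 143 hosts (16.8%, 11.1 to 23.9) had one, against 7.89% (7.45 to 8.34) of other genes. In all, 1099 host genes (87.0%) had no peak of any factor at an end, against 89.9% of all protein-coding genes. RFX3 was at an end of 128 hosts (10.1%), against 7.94% of all genes, and all 3 factors at an end of 33 (2.61%), against 2.06%.

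Most host genes held a single region: 995 had 1, 177 had 2 and 91 had 3 or more. Of the regions, 682 (40.9%, exact 95% interval 38.6 to 43.3) shared their gene with another. Cwc22, which encodes a splicing factor, held 11 regions in 65.2 kb, or 16.9 per 100 kb, where the other 9 of the top 10 hosts held between 0.304 and 1.44 per 100 kb. Its regions were weak, with a −log10 q between 9.29 and 15.2 and folds between 6.06 and 9.02. A further RFX3-only region lay 305 bp from an end of the gene, and 10 lay between genes nearby. Of the 23 regions within 200 kb of Cwc22, 22 carried RFX3 alone. Asic2, an acid-sensing ion channel gene of 1088.23 kb, had 8 regions with a −log10 q between 9.60 and 43.6. It also held 4 regions with RFX1 and RFX3 and 1 with all 3, and a group of RFX3-only sites lay between 94.881 and 122.93 kb from its start, on either side of a shared site at 107.557 kb.

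The other 8 leading hosts were from 348.174 to 1642.85 kb long, and 7 of them also held a region with RFX1 and RFX3. Rora, which encodes the nuclear receptor ROR-alpha, held 7 regions with a −log10 q of at most 16.3, beside 3 with RFX1 and RFX3 and 1 with all 3. Dnm3, a dynamin gene of membrane fission, and Magi1, a scaffold gene of cell junctions, held 6 each, with best values of 31.3 and 19.9. Dennd1a, which encodes an exchange factor for the small GTPase Rab35, held 5, with 1 far above the rest at 49.7 against a median of 10.7. Dis3l2 held 5 and no shared region with RFX3; its best was the alternative start shown above. Dgki, a diacylglycerol kinase gene, Lpp, a focal adhesion gene, and Csmd1 held 5 each. Within 10 kb of another such region lay 143 of the 1666, of which 11 were those of Cwc22.

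**Figure D3:**
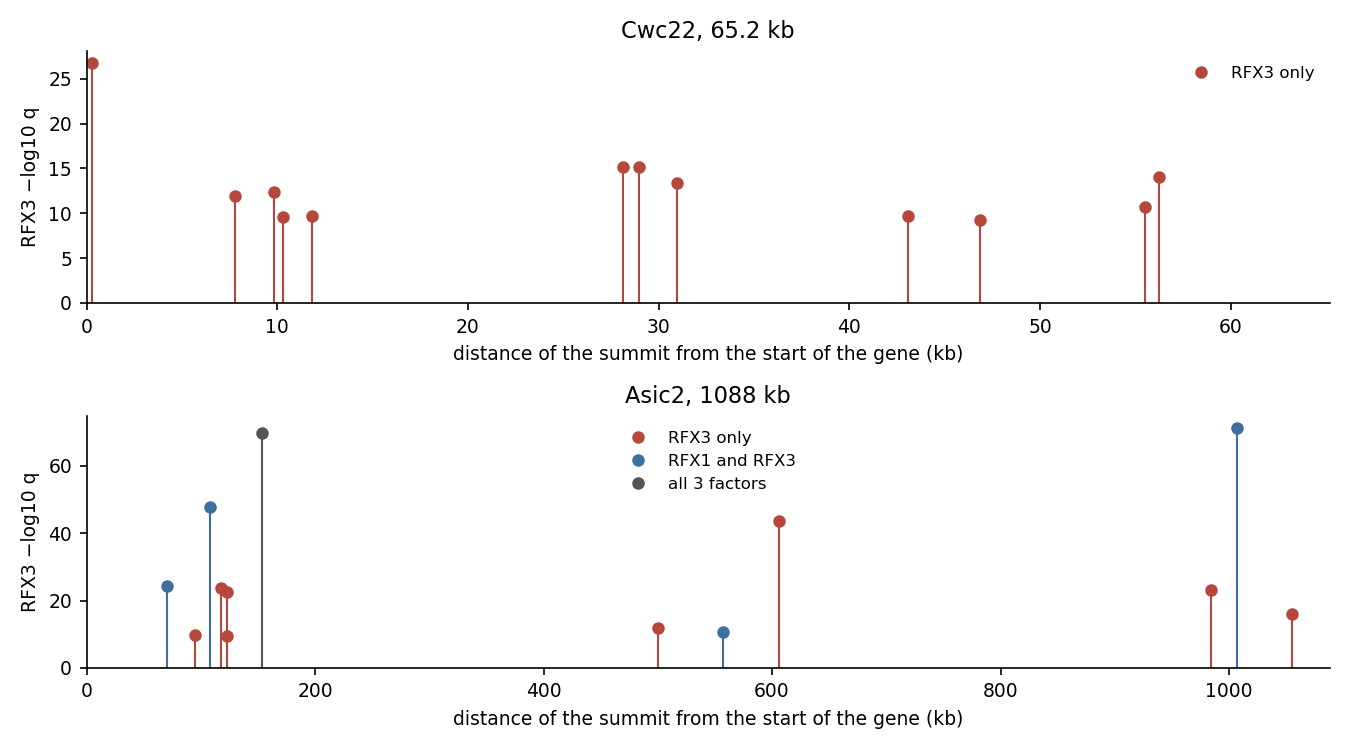
RFX3 −log10 q of every region in Cwc22 (top) and Asic2 (bottom) against the distance of the summit from the start of the gene in kb; colour gives the class of region. Cwc22 carried RFX3 alone throughout, with values up to 15.2 inside the gene, while in Asic2 8 RFX3-only regions lay among 5 shared ones.

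RFX3-only regions were rarely close to a start of transcription inside the gene. A summit lay within 500 bp of an annotated start, at an alternative start of a coding gene or a lncRNA start, in 35 of 1619 RFX3-only regions (2.16%, exact 95% interval 1.51 to 2.99). Regions inside genes with RFX1 and RFX3 had one in 129 of 1777 (7.26%, 6.10 to 8.57). The odds ratio was 0.282 (0.187 to 0.416; two-sided Fisher's exact test, adjusted p = 7.51e-12 over 7 tests). Chromosome 18, with 47 of the 1666 regions, was not used for starts or windows. The start annotation also lacked some host genes on other chromosomes, Csmd1 among them. Only 1285 RFX3-only regions had a single host gene with a strand given there. Starts of the missing genes could not be found, so the shares of both classes can be too low. How far this bears on the comparison was not tested. Of the 35, 23 were starts of coding genes and 12 of lncRNA genes. At coding starts alone the shares were 1.42% (0.903 to 2.12) of RFX3-only regions and 5.80% (4.76 to 6.99) of regions with RFX1 and RFX3. At lncRNA starts they were 0.741% (0.384 to 1.29) and 1.46% (0.958 to 2.14), with overlapping intervals. RFX3-only regions between genes were near a start in 51 of 1823 (2.80%), and all 51 were lncRNA starts, since the rule keeps these regions away from coding genes. The classes thus meet different kinds of start, so the 3 of the 7 tests that set RFX3-only regions inside genes against those between genes are not read here. Because regions are not replicates, each p speaks only of these lists. The 7 tests were chosen after looking at the data: counts had been seen for 4 distances from 150 to 1000 bp, for 4 classes of region inside genes, for 10 bins along the gene and for 3 forms of the motif, and the distance of 500 bp and both comparison classes were settled after that. The adjustment over 7 tests does not cover all that was looked at. At the other distances the shares were 1.54% of RFX3-only regions and 4.90% of those with RFX1 and RFX3 at 150 bp, 1.79% and 5.91% at 250 bp, and 2.90% and 9.45% at 1000 bp. Of the classes seen but not tested, 11.6% of regions inside genes with all 3 factors and 5.28% of those with RFX1 alone lay within 500 bp of a start.

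RFX3-only peaks were weaker, so the shares were also taken at like strength. When regions of both kinds were divided into 4 equal classes by RFX3 −log10 q, the weakest class, up to 11.9, had starts in 3.10% (1.90 to 4.75) of RFX3-only regions and 3.38% (1.37 to 6.84) of regions with RFX1 and RFX3. In the second class the shares were 1.17% (0.430 to 2.53) and 6.31% (3.95 to 9.48), in the third 2.23% (0.901 to 4.54) and 7.29% (5.23 to 9.83), and in the fourth 1.36% (0.165 to 4.83) and 8.83% (6.84 to 11.2). The intervals did not overlap in the 3 stronger classes and overlapped in the weakest; whether the classes differ from each other was not tested.

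Along the gene, RFX3-only summits were spread with 8.72% to 11.4% in each of the 8 inner bins, each 10% of the gene's length. Of the 1285 regions whose host is a single gene with a known strand, 312 (24.3%, 22.0 to 26.7) lay in the first 25% of the gene. Regions with RFX1 and RFX3 had 394 of 1411 there (27.9%, 25.6 to 30.3), a difference that did not pass the threshold (odds ratio 0.828, 0.694 to 0.987; two-sided Fisher's exact test, adjusted p = 0.111). With the first 10% of the gene in its place, chosen after the bins were seen, 96 RFX3-only regions (7.47%) and 160 with RFX1 and RFX3 (11.3%) were counted, and the test passed (odds ratio 0.631, Fisher's exact test, adjusted p = 0.00216). That cut was taken from the same counts that it tests, so no conclusion is drawn from its p. The last 10% of the gene held 8.25% of RFX3-only regions and 6.80% of those with RFX1 and RFX3. In both classes the 1 kb left out at gene ends takes sequence from the first and last bins. The median distance from the start of the host was 70823 bp.

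**Figure D4:**
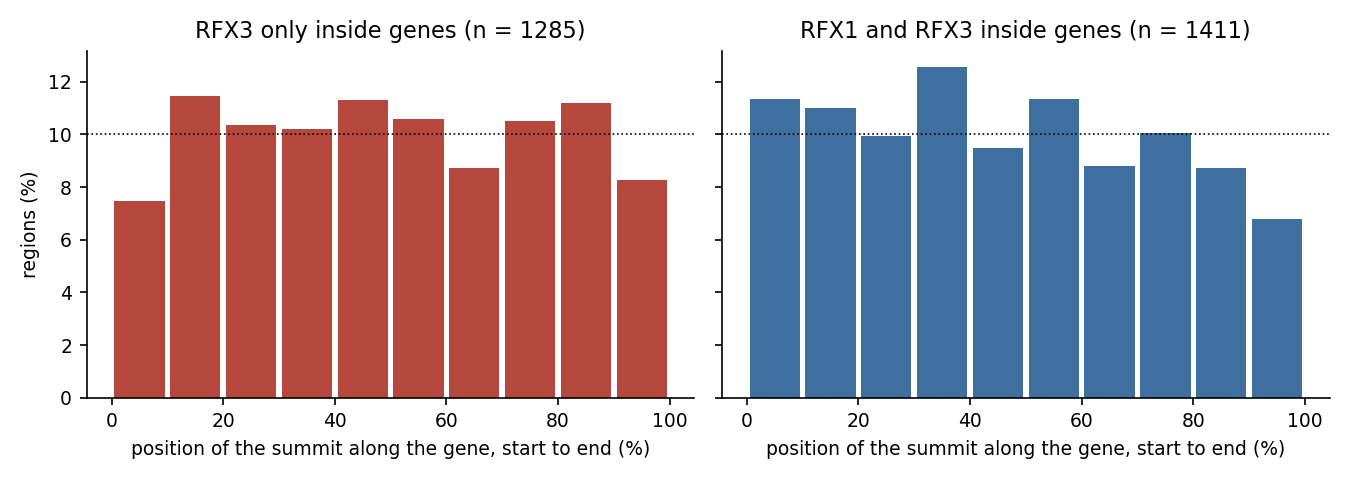
Share of regions in 10 equal bins along the host gene, from its start to its end, for RFX3 alone (left, n = 1285) and RFX1 with RFX3 (right, n = 1411). The dotted line marks an even spread, with no allowance for the 1 kb at gene ends that the rule leaves out. The first bin held 7.47% of RFX3-only regions and 11.3% of regions with RFX1 and RFX3.

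At the starts that RFX3-only regions did occupy, no difference in X-box motifs from regions with RFX1 and RFX3 passed the test, in small numbers. A paired X-box was present in 5 of 25 windows of RFX3-only regions (20%) and in 7 of 84 with RFX1 and RFX3 (8.33%; odds ratio 2.72, 0.613 to 11.2, Fisher's exact test, adjusted p = 0.277). A single arm was present in 18 of 25 windows of RFX3-only regions (72.0%) and 59 of 84 with RFX1 and RFX3 (70.2%), against 45.3% of all promoter windows (odds ratio 1.09, 0.374 to 3.48, Fisher's exact test, adjusted p = 1). For the regions away from annotated starts, sequence was not analysed here.

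Of the 4 lists of ciliary genes, 2 had a smaller share of hosts than genes of like length and 2 a larger one, and in all 4 the share among genes of like length lay inside the exact interval of the list. Counts with RFX3 at an end stand beside 7.94% of all protein-coding genes with RFX3 there. In the list of intraflagellar transport and BBSome genes, which carry cargo into and out of cilia, 1 of 40 was a host (2.50%), beside 28 with RFX3 at an end; genes of like length were hosts in 7.70%. That host was Bbs9, a BBSome subunit gene of 412.725 kb, with 2 regions, the better at a −log10 q of 12.4. Among 63 ciliary motility genes, 5 were hosts (7.94%), against 15.7% of genes of like length, and 43 had RFX3 at an end. Spag17, a central pair gene, had the strongest of these, at 46.9 on the −log10 q scale and 18.4 in fold, 28677 bp from its start; it had RFX1 but not RFX3 at an end. The dynein heavy chain genes Dnah8 (21.7) and Dnah5 (12.9) and the dynein light chain gene Dnal1 (13.6) had 1 region each. In the transition zone, the gate at the base of the cilium, 2 of 24 genes were hosts (8.33%, like length 5.66%) and 17 had RFX3 at an end. The hosts were Rpgrip1 (16.3) and the tectonic gene Tctn2 (14.2), which also had RFX1 and RFX3 at an end. Of the 26 genes of the multiciliated cell programme, 2 were hosts (7.69%, like length 6.29%) and 6 had RFX3 at an end. The hosts were the RFX family genes Rfx4 (14.6) and Rfx1 (10.02), with folds of 5.10 and 3.38. Rfx4 also held 2 regions with all 3 factors and Rfx1 held 1.

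Lists of cell type markers were too small for their shares to be set apart from those of like length. No ependymal, neuronal or microglial marker was a host, out of 8, 6 and 4, and these small lists allow shares of up to 36.9%, 45.9% and 60.2% by exact interval. Of 8 astroglial markers 2 were hosts (25%, exact 95% interval 3.19 to 65.1, like length 5.58%), and both encode glutamate transporters. Slc1a2 had 2 regions, the better at 12.4, beside 2 regions with RFX1 and RFX3 and 1 with all 3, and Slc1a3 had 2, the better at 11.8. Of 7 oligodendroglial markers 1 was a host (14.3%, 0.361 to 57.9, like length 6.23%): Mbp, the myelin basic protein gene, with 14.4. None of the 41 genes for cytosolic ribosomal proteins was a host. These genes are short, with a median of 3.27 kb. Their like-length share, 0.994%, is that of all genes under 30 kb. The rule leaves out 1 kb at each end, so little of a gene of the median length can hold a region.

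Among 27 BMP and TGF-beta genes, 8 were hosts (29.6%, exact 95% interval 13.8 to 50.2), against 11.7% of genes of like length and 5.77% of all genes. None of the 27 had RFX1 at an end, against 9.05% of all genes. The same held for the growth factor receptor and Hedgehog genes below. These lists are small, and no interval was taken for this count. The ligand gene Tgfb2 reached 32.8, at a fold of 14.5. Bmp6, another ligand gene, had 3 regions, the best (18.2) at 1585 bp from the start, and the co-receptor gene Tgfbr3 had 3 (best 12.8). Smad6, an inhibitor of the pathway, had 1 (16.9). Of 16 growth factor receptor genes, 5 were hosts (31.3%, like length 18.8%): Pdgfrb (21.1), Erbb4 and Ntrk3 (both 14.0), Igf1r (11.4) and Ntrk2 (10.7). In Hedgehog signalling 3 of 17 were hosts (17.6%, like length 8.22%). These were the effector gene Gli3 (26.2, fold 12.5), the receptor gene Ptch1 (10.9, fold 2.78) and Disp1, needed for release of the ligand (9.86). The nearest RFX1 or RFX2 peak to the Gli3 site was 926231 bp away.

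In the Notch list 4 of 22 were hosts (18.2%, like length 9.87%): the coactivator genes Maml2 (20.5) and Maml3 (9.59), the receptor gene Notch2 (12.2) and the ligand gene Jag1 (10.7). Each of these 4 genes also held at least 1 region with RFX1 and RFX3. In the Wnt list 3 of 25 were hosts (12%, like length 13.8%): the kinase gene Gsk3b (22.3), Lgr4 (21.1) and Ror1 (10.02). Planar cell polarity genes, which align cells and cilia within a sheet, had 3 of 20 (15%, like length 12.6%). Celsr1, an atypical cadherin gene, had 26.5, Prickle2 had 16.3 and Ankrd6 had 16.2, and all 3 held a region with RFX1 and RFX3 as well.

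**Figure D5:**
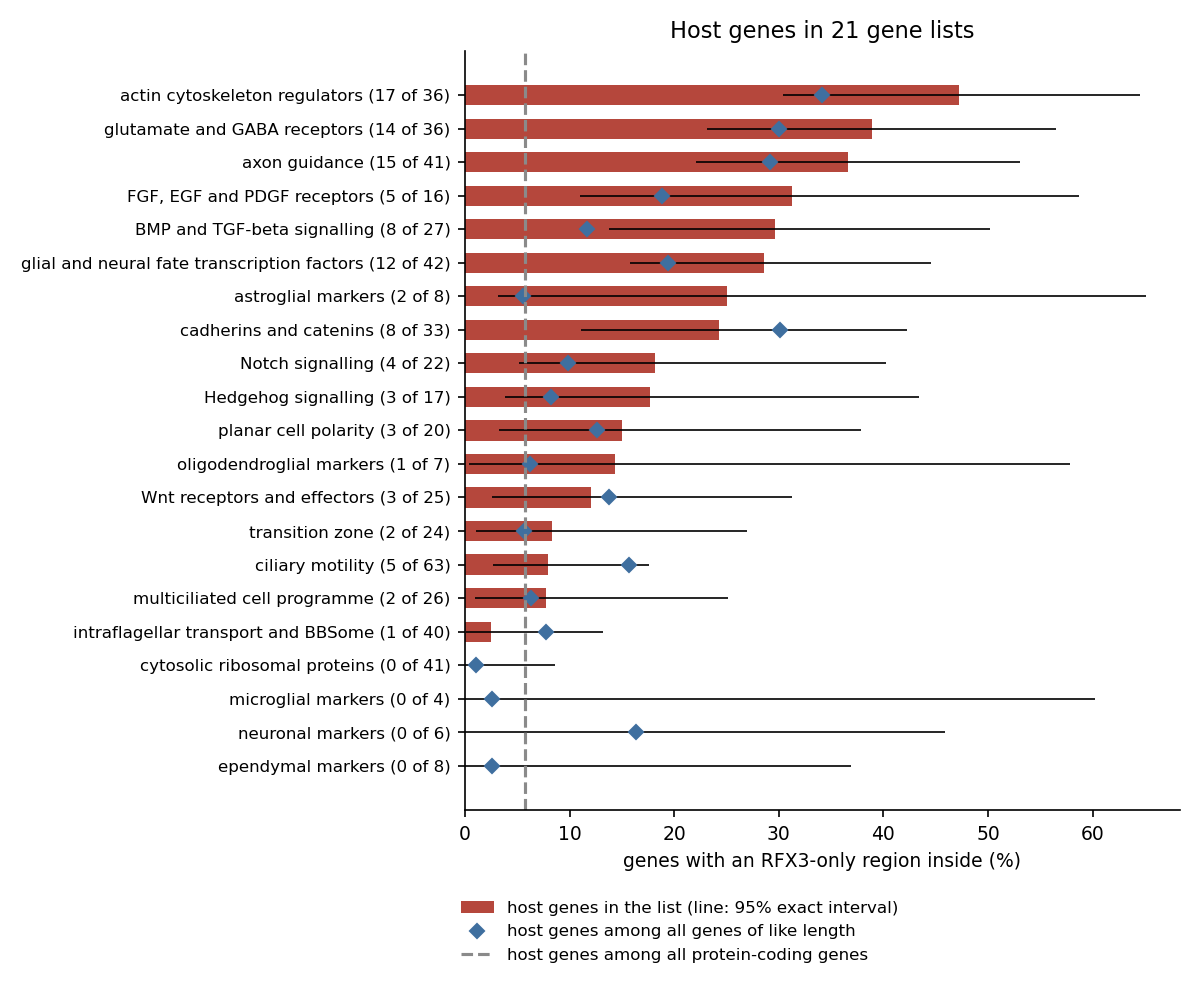
Share of genes with an RFX3-only region inside in each of 21 gene lists (bars, with exact 95% intervals as lines), the share among all genes of like length (diamonds) and among all protein-coding genes (dashed line, 5.77%). Actin cytoskeleton regulators reached 47.2%, against 34.1% for genes of like length, and intraflagellar transport and BBSome genes 2.50% against 7.70%.

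The highest shares were in lists of long neural and cytoskeletal genes, much of which long genes in general had too. Among 36 actin cytoskeleton regulators 17 were hosts (47.2%, 30.4 to 64.5), where genes of like length were hosts in 34.1%. Tiam2, an exchange factor gene for Rac, had 30.1, the formin gene Fmn2 27.5, the Rac exchange factor gene Dock1 23.4 and Lpp 22.4. Glutamate and GABA receptors had 14 of 36, where genes of like length had 30.01%. The kainate receptor gene Grik4 had 44.6 and its relative Grik1 had 4 regions, the best 34.3. The GABA-A subunit gene Gabra5 had 29.2. Axon guidance genes had 15 of 41 (36.6%, like length 29.1%), led by the plexin gene Plxna1 (46.9), the ephrin receptor gene Ephb1 (36.4) and the semaphorin genes Sema6d (26.7) and Sema5b (25.2). Cadherins and catenins had 8 of 33 (24.2%), below the 30.2% of genes of like length. The alpha-catenin gene Ctnna2 had 44.0 at 17631 bp from its start, and Fat3, an atypical cadherin gene, had 4 regions, the best 22.7.

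Transcription factors of glial and neural fate had 12 hosts among 42 genes (28.6%, 15.7 to 44.6, like length 19.4%), with 24 regions in all. Npas3, which encodes a bHLH-PAS factor, had 4 regions, the best with 35.6 and a fold of 15.3, beside 5 with RFX1 and RFX3 and 1 with all 3. The homeobox gene Meis2 had 2, the better at 22.4, its relative Meis1 had 1 (19.6) and the SRY-box gene Sox5 had 1 (21.1). Of the 42 genes, 3 had RFX1 and 2 had RFX3 at an end, where 9.05% and 7.94% of all protein-coding genes did. Over all 21 lists, 105 of the 533 genes found in the gene table were hosts (19.7%), against 5.77% of all protein-coding genes. That pooled share makes no allowance for gene length, and a like-length share over all lists was not taken. The lists are small and their exact intervals wide. For 20 of the 21 lists the share among genes of like length lay inside the interval, and for BMP and TGF-beta genes it lay below. The intervals make no allowance for reading 21 lists, and an excess in any list was not tested.

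Over the genome, RFX3-only regions numbered 1.69 per Mb of gene sequence over 1 kb from gene ends, and those with RFX1 and RFX3 1.86. That sequence made up 36.3% of the span of the chromosomes, while 44.0% of RFX3-only regions lay in it (exact 95% interval 42.4 to 45.6). The shares of the other classes were similar, at 42.9% with RFX1 and RFX3, 41.6% with all 3 and 44.2% with RFX1 alone. Chromosome 12 had the highest density, 2.29 RFX3-only regions per Mb, and chromosome X the lowest of those with any, 0.686. Regions with RFX1 and RFX3 were ordered alike at both extremes, with 2.41 and 0.754. A summit fell within an annotated lncRNA gene in 115 RFX3-only regions (6.90%, 5.73 to 8.23) and in 134 with RFX1 and RFX3 (7.27%, 6.13 to 8.55). A miRNA hairpin lay within 1000 bp of 1 region: that in Copz1, a coatomer gene, was 783 bp from Mir148b and had a −log10 q of 11.3.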

How the data were processed

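ChIP-seq peak lists of RFX1 (7440 peaks), RFX2 (1250) and RFX3 (9318) were used as deposited, with replicates already merged by the authors. Per the submitters' processing notes, the tools were Bowtie 0.12.7, MACS2 2.0.10.20130520 and CASAVA 1.8.2 and the build was GRCm38; their roles, the test of reproducibility and the depth are not stated there. The deposited score is the whole part of 10 times the deposited −log10 q; the deposited fold enrichment, a ratio over background, and −log10 q were used as the authors gave them, and the −log10 p was left out. Genes (21887 protein-coding) and promoter windows came from RefSeq GRCm38.p6 tables. No genome was used, so the planned comparison of exons and motif tests outside promoter windows were not run. The 7 tests on starts, position and promoter windows that replaced them were chosen after counts for several distances, bins, motif forms and classes had been seen, so the adjustment is narrower than the search. Tests against RFX3-only regions between genes, which meet no coding starts, stay in the adjustment and are not read. Intervals are exact Clopper-Pearson at 95% and cover the counting of regions or genes only. Fisher's exact tests were two-sided, with Benjamini-Hochberg adjustment over 7 tests and a threshold of 0.05. "Genes of like length" averages the host share of the 4 length classes over a list's genes. Merging and tests were checked on simulated peaks. The regions and gene lists were chosen with earlier results of these data known. Named are the 10 best regions, the 10 genes with most regions, up to 4 hosts per list by best −log10 q (a receptor gene that the rule names is not reported here), and regions at the limits of the rule; regions with printed sequences, those nearest to RFX1 or RFX2, Ntrk2 and the miRNA were chosen after their values were seen. Of 540 list genes, 533 matched. Analyses used Python 3.11.15, numpy 2.4.6, pandas 2.3.3 and scipy 1.17.1.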

Additional observations from a re-analysis of the deposited data

How the results depend on the processing

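The number of regions and hosts rests on list length. With the better-scoring 50% of each list there were 827 regions in 699 genes, 29.6% of regions shared a gene, 5.58% of hosts had RFX1 at an end and 58 list genes were hosts. With 1250 peaks per list these were 163, 160, 4.91%, 2.50% and 18. Hosts with RFX1 at an end were 8.60% with a 500 bp window and 18.1% with 5 kb. The share of all genes with RFX1 at an end was not taken with these windows or with shorter lists. These host shares therefore cannot be set against the 9.05% of all genes found at 1 kb with full lists. Another region within 10 kb, in place of the same gene, was found for 8.58%. Joining across 250 bp, requiring 50% of the shorter peak, a fold of at least 4, leaving out overlapping genes and leaving out Cwc22 moved no count by over 1.5 times. The odds ratio for starts against RFX1 and RFX3 ran from 0.203 to 0.359 over its 6 alternatives and passed in each. The first 10% of the gene in place of the first 25% passed (0.631), but that cut was chosen after the bins were seen and no conclusion is drawn from it. The paired X-box ratio against RFX1 and RFX3 was 0 in the better-scoring 50% of RFX3 peaks, and the single arm ratio was 0.741 in the weaker 50%, 0.776 within 50 bases of the summit and 0.952 with the N fixed as G; none passed, and the cause was not tested. The exon and genome-wide X-box comparisons planned at first were not run, for want of a genome. Without replicates in the lists, no replicate could be left out. No paired analysis was possible because each list merges its replicates.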

Other observations

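The cluster at Cwc22 extended past the gene. From 77878476 to 78021750 on chromosome 2, 10 RFX3-only summits lay between genes around the 11 inside, and the single region within 200 kb that also had RFX1 lay at 77681934, outside this stretch. As background, a segment that carries Cwc22 is known to vary in copy number between mouse strains; copy number in these OF1 mice was not analysed here.

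At the X-linked lncRNA gene 5730412P04Rik, inside Nxf3, both RFX3-only summits fell in promoter windows of the same gene, 1 base and 24 bases after different annotated starts, with folds of 7.84 and 7.06.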
